A study of Mus musculus with 24 samples.

Results

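Origin C is 1 of the tumour origins in a set of mouse mammary tumour-derived transplants, tumours taken from 1 animal and grown on in another, here in hosts of the inbred BALB/c strain. Each sample carries a code, and per the labels the code is linked to the tumour's origin; its first letter was used as the origin here. Codes that start with C were set against codes that start with F, G, H or L, and only libraries with at least 100000 barcode counts entered. This left 4 of the 24 samples of the series as C libraries, out of 6 with that letter, and 9 libraries of the other letters out of 13. Origin A was left out by the rule of the comparison. All samples were total RNA of mammary tumour tissue measured with NanoString barcodes, in which a fluorescently barcoded probe pair binds each transcript and the barcodes are counted without amplification. The sources used here state no genotype, host age or treatment.

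The labels also class each tumour by its immune infiltrate. As these words are generally used, lymphocytes lie among the tumour cells of an inflamed tumour, are held at the margin of an excluded one and are scarce in a desert one. The C libraries were 2 excluded (replicates 1 and 2) and 2 desert (replicates 5 and 6) tumours. The F libraries were both desert, G replicate 1 was desert and G replicates 2 and 3 inflamed, and the 2 H and 2 L libraries were inflamed. All 4 C codes carry the mark F2, as do 5 of the 9 others, and the other 4 codes carry a 0 (the first replicate of each letter). What either mark stands for is not stated in the labels. C replicates 1 and 2 share 1 code number, so the 4 C libraries hold 3 code numbers, and p values then measure only the spread between these samples, some of which may come from 1 tumour. Class is not balanced between the letters, since no C library was inflamed and no other library in the comparison was excluded.

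A mammary tumour holds carcinoma cells, fibroblasts with the matrix they make, blood vessels and infiltrating macrophages, neutrophils and lymphocytes. Proliferating cells switch on genes of DNA replication, repair and mitosis together, macrophages are known for the CSF1 receptor, complement C1q and class II antigen presentation, and the CXC chemokines Cxcl1, Cxcl2 and Cxcl3 draw neutrophils through the receptor Cxcr2. In bulk tissue, fewer cells of a type and less RNA of a gene per cell cannot be told apart.

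Total counts over the 750 genes with values ran from 348430 to 976271 in the C libraries and from 107677 to 1110314 in the others. Values are log2 of a barcode count times 1 factor per library, so a library with few counts has a high floor. The detection limit of a library, the mean plus 2 SD of the log2 values of the 75 lowest genes, was 1.67 to 2.91 in C libraries, against 3.22 to 4.32 in the 5 other F2 libraries and 1.71 to 2.04 in the 4 libraries with a 0. A gene is called detected below if it exceeded the limit in at least 4 of the 13 libraries, which 606 of the 750 genes did. The mean log2 value of those lowest genes was 0.12 to 1.20 in C libraries and 1.38 to 2.41 in the other F2 libraries, so a gene at background tends to read lower in C than in those. It was -0.14 to 0.19 in the libraries with a 0, so that such a gene tends to read alike or higher in C than in those. A limit of this kind reflects the spread among the 75 lowest genes of 1 library and does not cover the spread between tumours.

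No gene separated C from the other origins at the threshold. With limma's moderated test on the log2 values and Benjamini-Hochberg adjustment over the 750 genes, 0 genes had an adjusted p under 0.05 (0% called), and the smallest adjusted p was 0.735. At an unadjusted p under 0.05 there were 45 genes (6.0% of those tested), 5 with a higher mean in C (0.667%) and 40 with a lower one (5.33%). All 5 of the first and 32 of the second were detected, and for 9 of the 40 no C library exceeded its limit. No gene had a C mean more than 2 log2 units from the mean of the other libraries. On the deposited scale only Pdgfb had all its C values on 1 side of the other 9 (1 gene, 0.133%, lower in C). With each library set to its own median, Birc5, Pold1 and Ube2t did so too, on the higher side.

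Most differences leaned 1 way. The C mean was below that of the others in 515 genes (68.7%) and above it in 235 (31.3%), with a median log2 difference of -0.25 over all genes, -0.20 over the detected genes and -0.44 over the 144 that were not. With each library set to its own median, 58.3% of genes were lower in C and the median was -0.09, and after quantile normalization 50.5% were lower; both rescalings bring the libraries to a common centre by construction. The lists of genes below are set beside these shares.

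**Figure D1:**
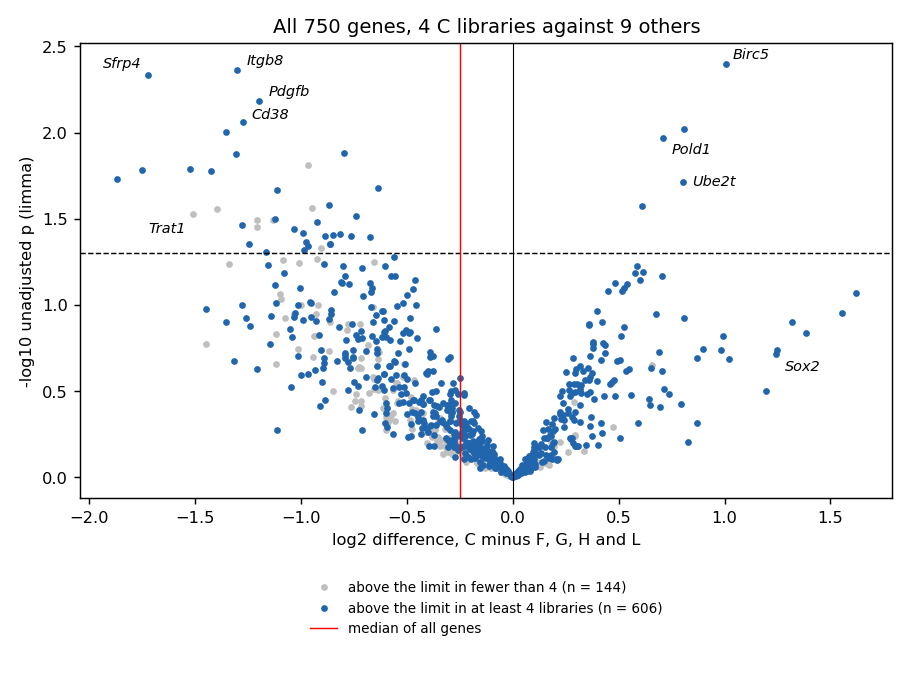
Each point is 1 of 750 genes, with the log2 difference of C minus F, G, H and L on the x axis and -log10 of limma's unadjusted p on the y axis; the dashed line marks an unadjusted p of 0.05, the red line the median of all genes, and grey points are genes above the detection limit in fewer than 4 libraries. The cloud lies left of 0 (68.7% of genes), 45 points lie above the dashed line, and none has an adjusted p under 0.05.

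The genes with the smallest p and a higher mean in C were mostly genes of dividing cells. Birc5, which encodes survivin, an inhibitor of cell death that also works in chromosome segregation, read 9.42, 9.51, 9.07 and 10.34 in C libraries, against 8.06, 8.72 and 9.17 as the lowest, median and highest of the others. Each of the 4 C values exceeded 8 of the 9 others, and G replicate 3 alone exceeded the lowest C value. The difference was 1.00 (SE 0.29, unadjusted p 0.0040, adjusted p 0.735).

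Pold1, the catalytic subunit of DNA polymerase delta, read 6.24, 6.43, 5.67 and 6.54 in C libraries, and 5.10, 5.60 and 5.77 as the lowest, median and highest of the others, a difference of 0.71 (SE 0.24, adjusted p 0.735). Only C replicate 5 lay inside the range of the others. Ube2t, the ubiquitin-conjugating enzyme of the Fanconi anaemia repair pathway, read 6.70, 6.76, 6.50 and 7.65 in C libraries, against 5.41, 6.26 and 6.62 in the others, a difference of 0.80 (SE 0.30, adjusted p 0.735). Melk, a kinase of proliferating cells, read 6.51, 6.78, 6.30 and 6.71 in C libraries, against 5.48, 5.96 and 6.56 in the others, a difference of 0.61 (SE 0.25, adjusted p 0.735). In both genes the groups overlapped by a narrow margin: 7 of 9 other libraries lay below every C value of Ube2t and 8 of 9 below every C value of Melk.

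Other genes that the rule for named genes took from this side had unadjusted p from 0.059 to 0.072. Cenpf, a kinetochore protein, differed by 0.59 and Anln, the scaffold of the contractile ring, by 0.71. H2afx, the histone variant phosphorylated at DNA breaks, differed by 0.62, the exonuclease Exo1 by 0.58 and Ube2c, which serves the anaphase-promoting complex, by 0.60. Ube2c read 9.01 and 8.91 in the excluded C libraries and 10.10 and 10.11 in the desert ones. Without the desert C libraries its difference was 0.026. Anln was the 1 of these genes whose direction turned among desert tumours, where the difference was -0.28 (SE 0.45, 2 C against 3 other libraries).

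As a list, proliferation and mitosis had 18 members measured, of which 17 were detected and 17 had a higher mean in C, against 31.3% of all genes. The median difference was 0.41, beside -0.25 over all genes, 3 members had an unadjusted p under 0.05 (Birc5, Ube2t and Melk), and 0 passed the adjusted threshold. The exception was Ccnb1, cyclin B1, at -0.25. All 18 were higher after quantile normalization (median 0.56), 15 of 18 among desert tumours alone (0.59), 16 of 18 without the excluded pair (0.60) and 15 of 18 without the desert C libraries (0.39). The mean over the members was 6.54, 6.61, 6.53 and 6.96 in C libraries, against 5.95 to 6.52 in the others. Each C mean thus lay above that range, with the narrowest margin between C replicate 5 and G replicate 3.

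DNA damage repair behaved alike, with 15 of 18 measured members higher in C, all 18 detected, and a median of 0.34 (0.55 after quantile normalization). Pold1 was the 1 member with an unadjusted p under 0.05 and 0 were called; Pms2, Nbn and Mgmt had lower means in C, with differences of -0.29, -0.47 and -0.31. Fanca, of the Fanconi anaemia pathway, differed by 0.51 and Blm, the helicase lost in Bloom syndrome, by 0.52. Without the desert C libraries 12 of 18 members were higher and the median was 0.11, so the lean was smaller in the excluded pair. Both lists were chosen with earlier results of these data known, and their counts are a description.

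On the other side stood growth factors and matrix genes of the stroma. Pdgfb, the B chain of platelet-derived growth factor, which recruits pericytes to vessels, read 5.14, 5.32, 4.91 and 4.72 in C libraries, against 5.58, 5.82 and 7.69 as the lowest, median and highest of the others. The groups did not overlap, but the gap was narrow, 5.32 in C replicate 2 against 5.58 in F replicate 2. The difference was -1.20 (SE 0.38, unadjusted p 0.0066, adjusted p 0.735).

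Sfrp4, a secreted Wnt antagonist, read 1.73, 2.71, 1.31 and 2.92 in C libraries, against 1.92, 4.07 and 4.89 as the lowest, median and highest of the others, a difference of -1.72 (SE 0.51, adjusted p 0.735). It exceeded the detection limit in 3 of 4 C libraries and 6 of 9 others, and with all values floored at the highest detection limit, an alternative chosen after seeing the data, the difference was -0.15. Col11a1, a fibrillar collagen of activated fibroblasts, read 2.85, 3.28, 2.63 and 2.50 in C libraries, against 3.17, 4.07 and 6.90 in the others, a difference of -1.75 (SE 0.64, adjusted p 0.735). Its spread lay in the other origins, with the high values in H replicate 1 (6.90), F replicate 1 (6.09) and L replicate 1 (5.68), all 3 with the code 0. Among F2 codes only, where those libraries drop out, the difference was -0.76, and with floored values it was -0.66.

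Itgb8, the integrin subunit that helps release active TGF-beta, split the C libraries: it read 2.59 and 2.96 in the excluded pair and 4.19 and 4.13 in the desert C libraries, against 3.54, 4.85 and 5.44 as the lowest, median and highest of the others. The difference was -1.30 (SE 0.38, unadjusted p 0.0043, adjusted p 0.735). It was -1.99 without the desert C libraries (adjusted p 0.091) and -0.61 without the excluded pair (adjusted p 0.514), and with floored values it was -0.54. Fgf18, a fibroblast growth factor, split in the same way at low levels, with 0.44 and 2.21 in the excluded pair and 3.35 and 3.16 in the desert C libraries, against 3.04 to 4.28 in the others (difference -1.35, SE 0.46, adjusted p 0.735). Palmd, which encodes palmdelphin, read 3.10, 3.54, 3.80 and 4.85 in C libraries and 4.11 to 6.65 in the others (difference -1.31, adjusted p 0.735, and -0.70 with floored values). Pecam1, the junction protein CD31 of endothelium, read 7.28, 7.40, 6.54 and 7.12 in C libraries and 6.77 to 9.13 in the others (difference -0.86, adjusted p 0.735).

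The fibroblast and extracellular matrix list had 16 of 17 measured members lower in C, beside 68.7% of all genes, with a median of -0.50. Of these 17, 13 were detected, 5 had an unadjusted p under 0.05 and 0 were called; Col5a1 alone had a higher mean in C, by 0.67. After quantile normalization 13 of 17 were lower (median -0.31). Endothelium and angiogenesis had 15 of 18 lower (median -0.37), and the Notch and Hedgehog list 11 of 14 (median -0.38), among them the Notch ligands Jag1 at -0.99 and Jag2 at -0.86 (-0.072 with floored values). Without the desert C libraries the medians of these 2 lists were -0.073 and -0.11, and after quantile normalization -0.18 and -0.22. Of the epithelial list 5 of 6 measured members were lower (3 of 6 after quantile normalization). It includes Epcam, the adhesion molecule of epithelium, which read 1.52, 2.61, 1.89 and 1.92 in C libraries, above the limit in 1 of 4, against 1.05 to 4.39 in the others, above it in 3 of 9, and its difference of -1.12 was -0.0085 with floored values. It also includes Itga6, the laminin receptor subunit, which read 7.79, 7.70, 6.40 and 5.72 in C libraries and 7.03 to 8.37 in the others, so that the desert C libraries alone lay below that range.

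**Figure D2:**
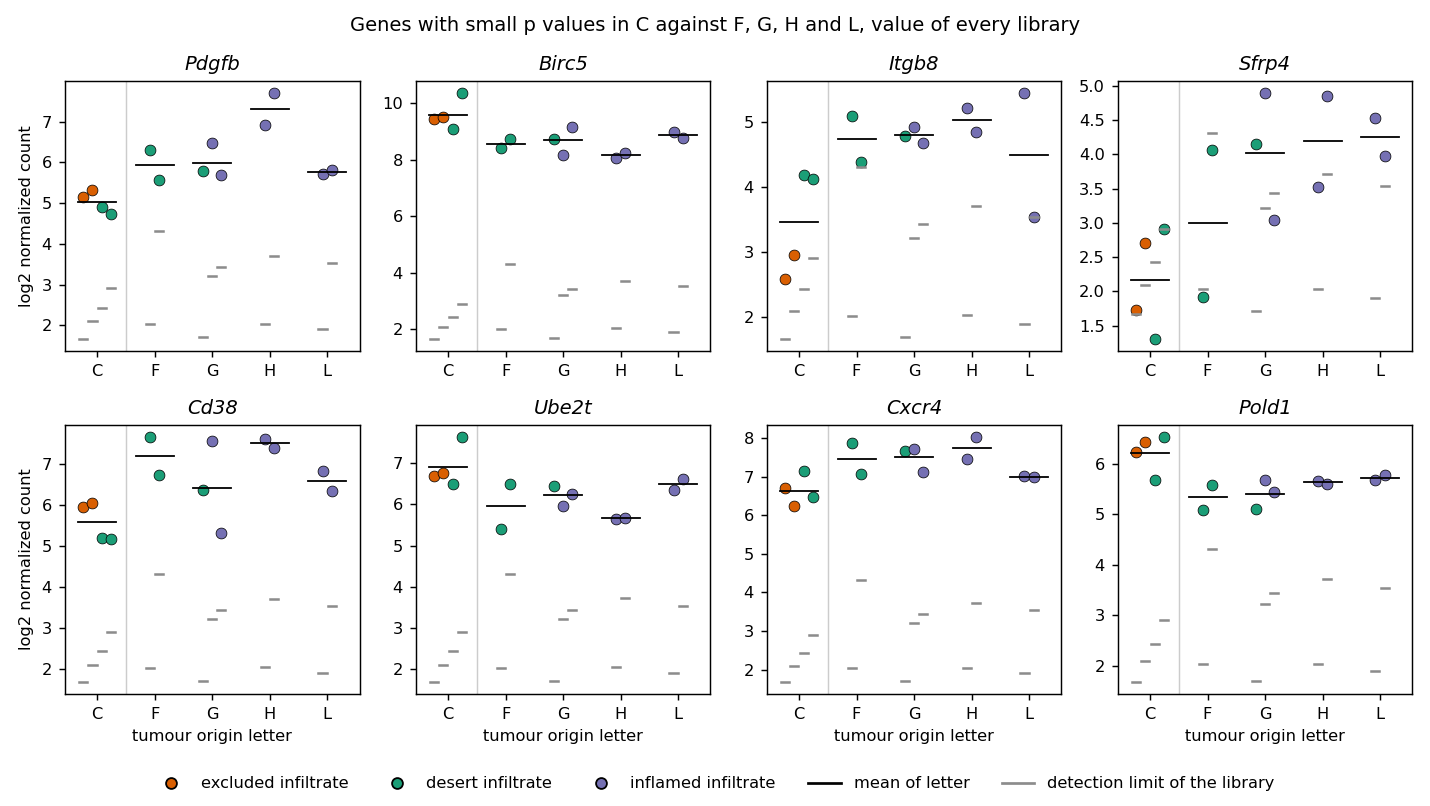
Each panel shows the log2 normalized count of 1 gene in each of the 13 libraries by origin letter, coloured by infiltrate class, with the mean of each letter (black) and the detection limit of each library (grey). Birc5, Pold1 and Ube2t lie higher in C with an overlap, Pdgfb alone shows no overlap on this scale, and Sfrp4 lies near the limits in many libraries.

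Immune genes with a small p also had lower means in C. Cd38, an NAD-consuming ectoenzyme of activated leukocytes, read 5.94 and 6.04 in the excluded pair and 5.19 and 5.16 in the desert C libraries, against 5.31, 6.82 and 7.66 as the lowest, median and highest of the others (difference -1.27, SE 0.42, unadjusted p 0.0087, adjusted p 0.735). All but G replicate 3 lay above every C value. Casp1, the protease that activates interleukin 1 beta, read 6.83, 6.97, 5.67 and 7.57 in C libraries, against 6.54, 8.78 and 9.55 in the others (difference -1.52, SE 0.56, adjusted p 0.735). Both F libraries and G replicate 3 lay within the range of C, while the H and L libraries all lay above it, and the difference was -0.58 against F, -0.94 against G, -2.40 against H and -2.47 against L.

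Cxcr4, the receptor of the chemokine Cxcl12, read 6.71, 6.23, 7.14 and 6.46 in C libraries and 6.98 to 8.03 in the others, with only C replicate 5 inside that range (difference -0.80, SE 0.28, adjusted p 0.735). Apoe, an apolipoprotein abundant in macrophages, read 12.88, 13.05, 11.05 and 12.00 in C libraries and 11.90 to 14.57 in the others (difference -1.17, adjusted p 0.735). Entpd1, the ectonucleotidase CD39, differed by -0.85, the checkpoint ligand Cd276 by -0.92, the lymphocyte cytokine Il16 by -1.03 and the formyl peptide receptor Fpr1 by -0.76 (-0.11 with floored values), each with an adjusted p of 0.735. For Cd276 and Il16 the desert C libraries carried the difference: Il16 read 5.12 and 5.07 in the excluded pair and 3.80 and 3.38 in the desert C libraries, against 4.04 to 6.27 in the others.

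Some genes with a small p exceeded the limit in no C library. Trat1, an adaptor of the T cell receptor, read 0.44, 1.34, 0.63 and 0.50 in C libraries, all under their limits, and exceeded the limit in 1 of the 9 others, where it ran from 0.31 to 3.90. Wnt11 exceeded it in 0 of 4 C libraries and 1 of 9 others, and Rasal1, a Ras GTPase-activating protein, in 0 of 4 and 4 of 9. Of these genes only Rasal1 counts as detected. The differences of these 3 genes were -1.51, -0.97 and -1.11, and the part in them of the background means given above was not tested. No library exceeded the floor for them or for Fgf18, so they were not tested with floored values.

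By lists, 24 of 24 measured macrophage and monocyte genes had lower means in C (23 detected, median -0.54, 1 with an unadjusted p under 0.05), as did 9 of 9 genes of class II antigen presentation (8 detected, median -0.91), 13 of 13 of the Toll-like receptor list (median -0.46) and 19 of 20 CC and other chemokines (median -0.56). Of the T cell list 16 of 18 were lower (median -0.51), but 11 of these 18 were detected and the median was -0.11 after quantile normalization. In each list 0 genes passed the adjusted threshold. The macrophage lean rested on the desert C libraries: without them 13 of 24 members were higher in C and the median was 0.06, whereas without the excluded pair 22 of 24 were lower and the median was -1.09. Of the Toll-like receptor list 6 of 13 were higher without the desert C libraries, with a median of -0.034, against 12 of 13 lower without the excluded pair. After quantile normalization the macrophage median was -0.42, the class II median -0.71, the Toll-like receptor median -0.23 and the CC chemokine median -0.29. Without letter H the class II median was -0.39 in place of -0.91, the mean over these 9 genes being 5.96, 6.24, 5.66 and 5.08 in C libraries, and 9.29 and 8.22 in the highest of the others, H replicate 3 and G replicate 2, against 5.21 in the lowest, G replicate 1. Of the type I interferon list 13 of 20 members were higher in C (median 0.10), and 18 of 20 after quantile normalization. Without the excluded pair 7 of 20 were higher (median -0.24), near the share of all genes in that setting (35.7% higher, median -0.31). With that pair averaged 9 of 20 were higher (median -0.015), beside 31.2% of all genes (median -0.28).

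Sox2, a stem cell transcription factor followed as a marker gene of the C tumours, did not separate them from the others. It read 8.99 and 8.45 in the excluded pair and 6.47 and 7.05 in the desert C libraries. The others ranged from 3.71 in L replicate 1 to 8.95 in F replicate 2, with 8.78 in G replicate 1 and 8.33 in L replicate 2. The difference was 1.24 (SE 0.91, unadjusted p 0.193, adjusted p 0.747). It exceeded the limit in all 13 libraries, and the highest value of origins F, G and L lay above both desert C values. By letter, the mean was 7.74 ± 1.18 in C (SD, n = 4), 7.69 in F, 6.89 in G, 5.20 in H and 6.02 in L; C and F, the highest in this order, differed by 0.05 (SE 1.31). Among desert tumours alone the difference turned to -1.29 (SE 0.85, adjusted p 0.588).

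The C libraries fell into an excluded and a desert pair. Over the 606 detected genes, the means of these pairs lay a median of 0.78 log2 units apart, while the C mean and the mean of the others lay 0.36 apart; means of 2 libraries vary more than means of 4 and 9. The median SD over libraries was 0.56 in C and 0.68 in the others. The C libraries include the pair that shares a code number, and the others span several letters. These SDs therefore do not show which group was the more variable. C replicates 1 and 2 were a median of 0.12 apart and correlated at r = 0.991 across genes, with counts that still differed beyond counting error, while C replicates 5 and 6 were 0.48 apart (r = 0.956). Against C replicates 5 and 6, replicate 1 correlated at 0.883 and 0.895, and its lowest correlation with any library was that with C replicate 5. After each other, the libraries nearest to the excluded pair were G replicate 1 over 750 genes (r = 0.948 and 0.947) and F replicate 2 over the detected genes (0.927 and 0.934). C replicate 6 was as close to G replicate 3, an inflamed tumour, as to C replicate 5 (r = 0.956 with either over all genes, and 0.950 and 0.943 over detected ones). These correlations are across genes within a pair of libraries that share probes and scaling, and genes are not independent replicates.

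**Figure D3:**
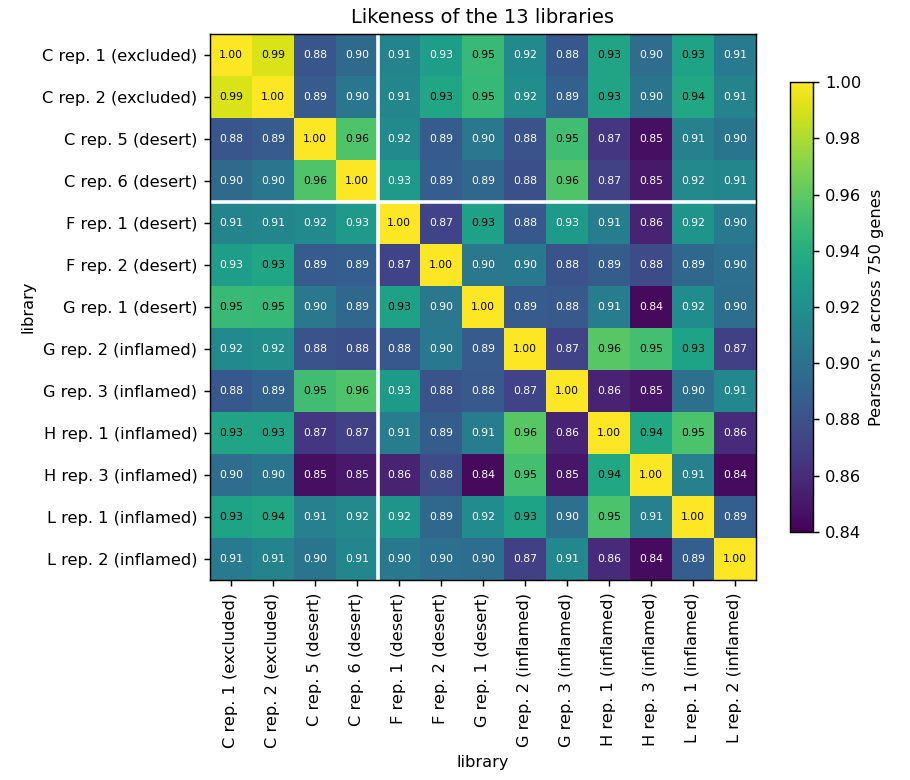
Pearson's r across 750 genes for each pair of the 13 libraries, with the C libraries left of and above the white lines and the infiltrate class in brackets. The excluded C pair (0.99) and the desert C pair (0.96) form 2 separate blocks, and C replicates 5 and 6 are close to G replicate 3 (0.95 and 0.96).

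Between the excluded and the desert C libraries, 78 genes (10.4% of 750) differed by more than 2 log2 units, of which 70 were detected: 34 higher in the excluded pair (4.53%) and 44 higher in the desert ones (5.87%). The genes named from here on were chosen after their values were seen. The excluded pair is 1 code number and the desert libraries are 2, so there is no replication of class within C and these values are given with no test. Class, code number and tumour cannot be told apart here.

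Id4, an inhibitor of helix-loop-helix transcription factors expressed in basal mammary epithelium, had the largest of these differences, 6.66. It read 8.86 and 8.64 in the excluded pair and 2.95 and 1.24 in the desert C libraries, the second of these under its limit. Among the others it was as high in F replicate 2 (9.55) and G replicate 1 (8.26), while the remaining 7 ran from 1.63 to 5.88. These 4 libraries, the excluded C pair, F replicate 2 and G replicate 1, also held the 4 highest values of Sox2, from 8.45 to 8.99.

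Genes of macrophages and cytotoxic lymphocytes were higher in the excluded pair. Siglec1, a sialic acid receptor of macrophages, read 7.74 and 7.88 there and 4.14 and 4.56 in the desert C libraries, against 3.89 to 8.18 in other origins. Mrc1, the mannose receptor, read 10.88 and 10.94 in the excluded pair and 7.80 and 9.10 in the desert C libraries, and Csf1r, the receptor on which macrophages depend, read 9.65 and 9.73 in the excluded pair and 7.07 and 7.38 in the desert ones. The others ran from 8.26 to 11.45 for Mrc1 and from 7.69 to 10.88 for Csf1r, so that both desert C values of Csf1r and 1 of Mrc1 lay below all of them. Gzma, a protease of cytotoxic granules, read 7.53 and 7.56 in the excluded pair and 3.01 and 5.22 in the desert C libraries, and Prf1, perforin, read 4.50 and 4.45 in the excluded pair and 0.31 and 2.24 in the desert ones. The excluded pair lay above all 9 other libraries for both, whose highest values were 6.10 for Gzma and 3.81 for Prf1. Both desert C values of Prf1 were under their limits, and 3 of the 9 others exceeded theirs. By list, 19 of 24 macrophage genes (median 1.22), 10 of 13 cytotoxic genes (median 1.37) and 18 of 20 type I interferon genes (median 0.84) were higher in the excluded pair, against 55.6% of all genes and a median of 0.18.

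Some genes of matrix, adhesion and signalling were also higher in the excluded pair. Col4a5, a basement membrane collagen, read 7.38 and 7.33 in the excluded pair and 4.31 and 4.13 in the desert C libraries, with all 9 others in between (4.42 to 6.58). Hey1, a target of Notch signalling, read 6.79 and 6.77 in the excluded pair and 3.67 and 3.62 in the desert C libraries. Gas1, a growth arrest gene and Hedgehog co-receptor, read 11.92 and 11.52 in the excluded pair and 9.23 and 8.81 in the desert ones, and Spp1, osteopontin, read 13.32 and 13.46 in the excluded pair and 10.97 and 10.79 in the desert ones. Vcam1, an adhesion molecule for leukocytes, read 8.57 and 8.79 in the excluded pair, above all 9 others (6.28 to 7.88), and 5.51 and 6.78 in the desert C libraries. By list, 11 of 17 fibroblast and matrix genes were higher in the excluded pair, not far above the 55.6% of all genes. Of 17 Wnt genes 12 were higher in the desert C libraries, among them Wnt7b (-3.02 as excluded minus desert), beside 44.4% of all genes. The Wnt receptor Ror2 (-3.05) and the transcription factor Sox11 (-3.77) also ran that way. Sox11 was under the limit in both excluded C libraries and above it in 1 of the 9 libraries of other origins.

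The desert C libraries were higher in growth, stress and inflammatory genes. Myc, a transcription factor that drives growth, read 8.28 and 8.30 in the excluded pair and 11.58 and 11.29 in the desert C libraries, against 7.93, 8.64 and 10.83 as the lowest, median and highest of the other origins. The excluded pair was thus within the common range, and the desert C libraries were above all 9 others, of which G replicate 3 was the nearest. Met, the receptor of hepatocyte growth factor, read 9.16 and 9.19 in the excluded pair and 12.12 and 12.80 in the desert C libraries, but 3 of the others were as high, at 13.41 in F replicate 1, 13.12 in L replicate 2 and 12.45 in G replicate 3. Cdkn1c, the cell cycle inhibitor p57, read 4.95 and 4.51 in the excluded pair and 8.59 and 8.92 in the desert C libraries, and G replicate 3 was again the nearest of the others at 8.20. Adm, adrenomedullin, a peptide induced by low oxygen, read 2.66 and 2.92 in the excluded pair and 8.32 and 6.64 in the desert C libraries, against 3.49 to 6.70 in the others. Slc2a1, the glucose transporter GLUT1, read 7.27 and 7.43 in the excluded pair and 10.06 and 9.28 in the desert C libraries. Of the hypoxia and metabolism list 22 of 29 members were higher in the desert C libraries (median -0.63 as excluded minus desert), beside 44.4% of all genes.

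For 7 genes (0.933%) the C libraries lay on both sides of all 9 others. Il1b, interleukin 1 beta, read 5.46 and 5.52 in the excluded pair and 8.42 and 8.24 in the desert C libraries, with the others from 5.73 to 7.75. Atf3, a stress-induced transcription factor, read 3.13 and 2.92 in the excluded pair and 6.43 and 6.27 in the desert C libraries, with the others from 4.01 to 5.63. The glycolytic enzyme Aldoa, the mitophagy receptor Bnip3l and the transaminase Got1 ran in the same direction, and Col4a5 and the interleukin 6 receptor Il6ra in the opposite one. As the mean of all 4 C libraries, Il1b differed from the others by 0.10 and Col4a5 by -0.05. More broadly, the excluded pair lay above all 9 others in 27 genes (3.60%) and below all of them in 38 (5.07%), and the desert C libraries lay above in 31 (4.13%) and below in 48 (6.40%).

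**Figure D4:**
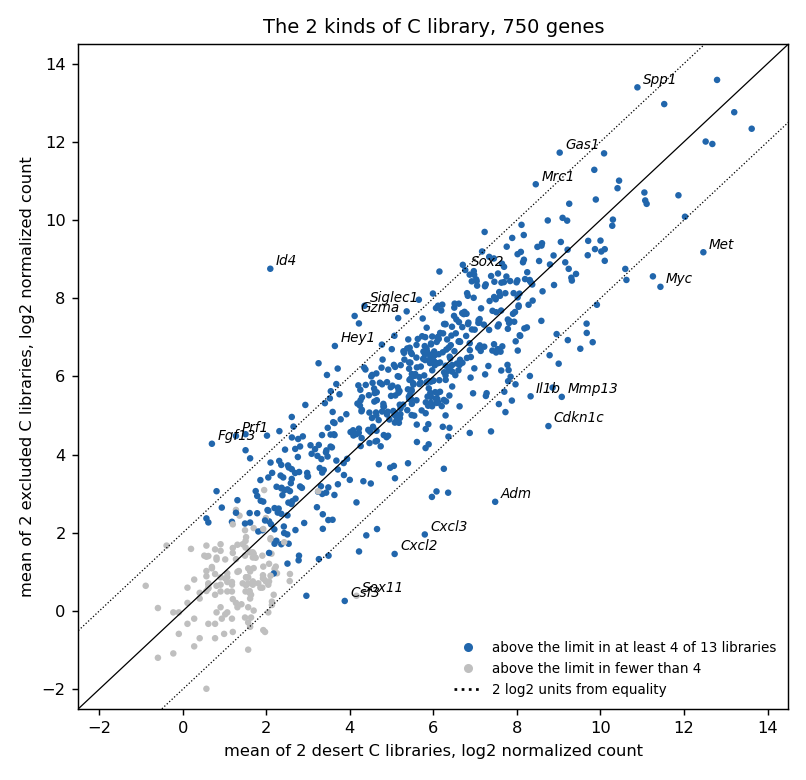
Each point is 1 of 750 genes, with the mean log2 normalized count of the 2 excluded C libraries on the y axis and that of the 2 desert C libraries on the x axis; the solid line marks equality and the dotted lines a difference of 2 log2 units, beyond which 78 genes lie. Id4 lies farthest above the line and Adm farthest below it.

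The 3 CXC chemokines of neutrophils were among the genes higher in the desert C libraries. Cxcl1 read 5.71 and 5.71 in the excluded pair and 8.77 and 8.94 in the desert C libraries, Cxcl2 read 1.08 and 1.84 in the excluded pair and 5.53 and 4.62 in the desert ones, and Cxcl3 read 1.52 and 2.40 in the excluded pair and 6.58 and 5.0 in the desert ones. The excluded pair was under its limit for Cxcl2 and lay below all 9 others for Cxcl2 and Cxcl3. Csf3, the growth factor of neutrophils, read -0.41 and 0.92 in the excluded pair, under their limits, and 4.75 and 3.0 in the desert C libraries. Of the CXC chemokine and inflammation list 16 of 21 members were higher in the desert C libraries, beside 44.4% of all genes. The median was -0.88 as excluded minus desert. In 6 of these members the difference exceeded 2 log2 units, among them also Il11 (-2.56). Against the other origins the C means of Cxcl1, Cxcl2 and Cxcl3 differed by 1.25, -0.37 and -0.93, each with an adjusted p from 0.747 to 0.889.

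These 3 chemokine genes lie close together on mouse chromosome 5, and their promoters are shown because the 3 genes ran in 1 direction among the C libraries and share a sequence. The 250 bases before each start site are printed 5′ to 3′ on the plus strand from RefSeq (GRCm38.p6). Capitals mark GGGAATTTCCC, the longest run of letters that all 3 windows hold, which is of the type bound by NF-kappa B, the transcription factor that interleukin 1 and Toll-like receptors activate. The windows are chr5:90890995-90891244 for Cxcl1, chr5:90903649-90903898 for Cxcl2 and chr5:90785851-90786100 for Cxcl3.
Cxcl1: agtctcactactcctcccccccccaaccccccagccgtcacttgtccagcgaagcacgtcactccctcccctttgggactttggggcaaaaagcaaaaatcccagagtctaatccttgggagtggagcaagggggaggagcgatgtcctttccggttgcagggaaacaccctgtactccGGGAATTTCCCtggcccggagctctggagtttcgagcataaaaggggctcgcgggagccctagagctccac
Cxcl2: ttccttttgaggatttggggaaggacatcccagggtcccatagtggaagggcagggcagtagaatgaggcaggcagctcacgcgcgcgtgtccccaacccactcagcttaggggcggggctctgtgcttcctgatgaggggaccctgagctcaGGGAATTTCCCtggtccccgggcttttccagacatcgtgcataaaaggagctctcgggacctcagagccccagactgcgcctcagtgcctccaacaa
Cxcl3: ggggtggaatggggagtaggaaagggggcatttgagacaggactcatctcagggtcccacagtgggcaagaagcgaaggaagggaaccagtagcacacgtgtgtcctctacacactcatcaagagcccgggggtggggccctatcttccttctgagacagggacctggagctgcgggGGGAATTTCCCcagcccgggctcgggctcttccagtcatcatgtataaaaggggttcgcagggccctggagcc
The run begins 71, 97 and 73 bases before the start sites of Cxcl1, Cxcl2 and Cxcl3. Searched on both strands, it occurs in the same window of 14 of 32851 RefSeq promoters (0.0426%). Among the 547 panel genes with a promoter in that table it occurs in 4. The hits in Cxcl1, Cxcl2 and Cxcl3 were fixed in advance, since the run was taken from their windows. These counts are therefore no measure of enrichment. The other panel gene is Il16, which was higher in the excluded pair by 1.5. A match of these letters is a description of the window and shows no binding.

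**Figure D5:**
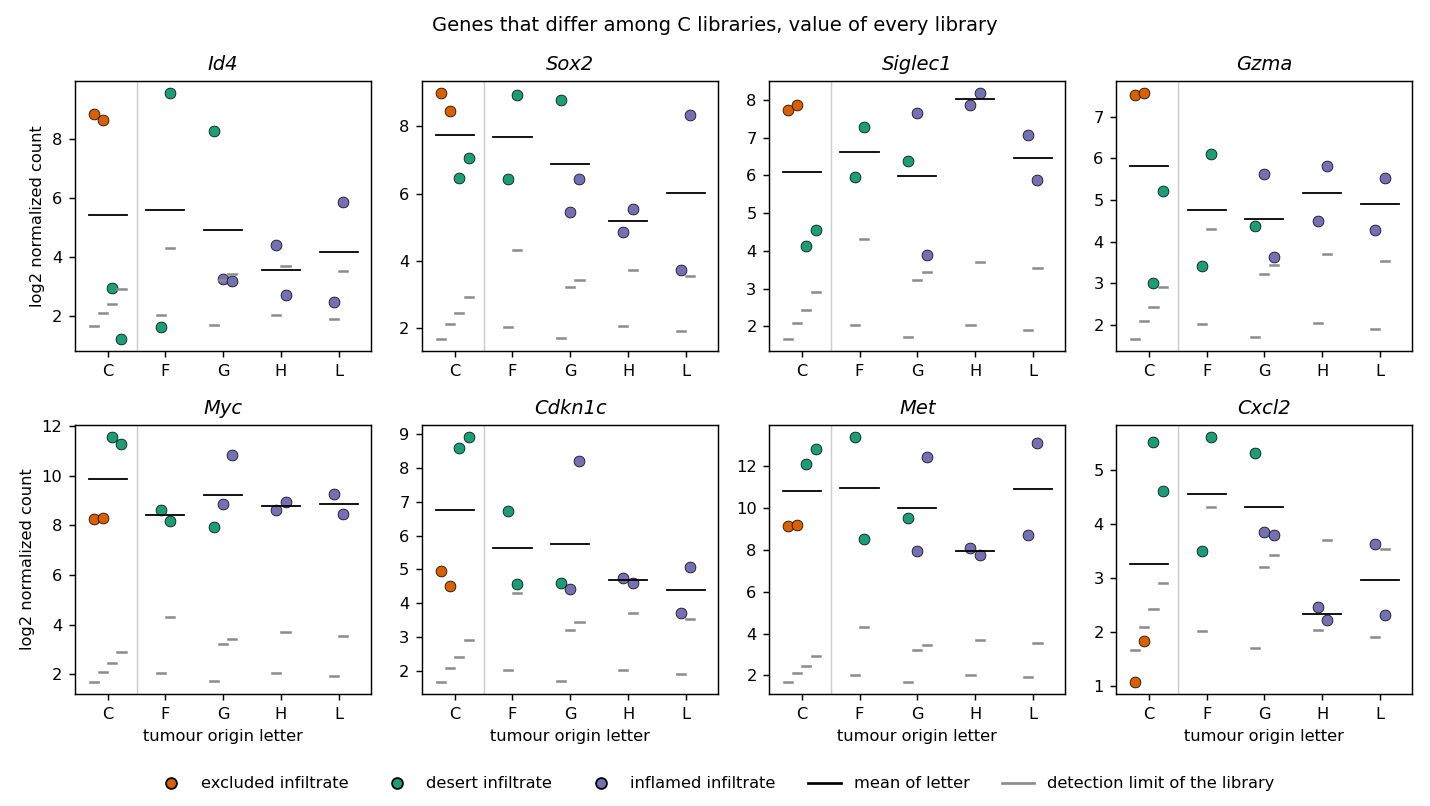
Each panel shows the log2 normalized count of 1 gene in each of the 13 libraries by origin letter, coloured by infiltrate class, with the mean of each letter (black) and the detection limit of each library (grey). The 2 excluded C libraries and the 2 desert C libraries lie apart in all 8 genes, and the letter C does not lie apart from the others in any of them.

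Against single letters, which share the C libraries and are therefore only set side by side, 0 genes passed the adjusted threshold in each of the 4 comparisons (0% called). At an unadjusted p under 0.05 there were 21 genes against F (2.80%), 13 against G (1.73%), 123 against H (16.4%) and 13 against L (1.73%). Pdgfb differed by -0.92 from F (SE 0.41), -0.97 from G (SE 0.36), -2.28 from H (SE 0.41) and -0.74 from L (SE 0.41), and its adjusted p of 0.120 against H was the smallest of any gene in these comparisons. Birc5 differed by 1.02, 0.91, 1.43 and 0.71 from F, G, H and L, and Itgb8 by -1.27, -1.33, -1.57 and -1.02. Sfrp4 differed by -0.83 from F and by -1.86, -2.03 and -2.09 from G, H and L. Each of these 4 genes kept 1 direction against the 4 letters.

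Since all C codes carry F2, C was also compared with the 5 other F2 libraries, all of fewer counts than any C library. There 1 gene passed the threshold (0.133%), Trat1, with a difference of -2.53 (SE 0.35, adjusted p 0.016), and 131 had an unadjusted p under 0.05 (17.5%), 4 of them higher in C (0.533%). Trat1 is the gene described above as under the limit in all 4 C libraries, and it exceeded the limit in 1 of these 5, so its value in C cannot be told apart from background. Sfrp4 differed by -2.0 (adjusted p 0.068), Pdgfb by -1.23 and Birc5 by 0.97 (both adjusted p 0.167).

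Among desert tumours alone, C replicates 5 and 6 against F replicates 1 and 2 and G replicate 1, 0 genes were called and 84 had an unadjusted p under 0.05 (11.2%), 22 of them higher in C (2.93%). Myc had the smallest p, with 11.58 and 11.29 in C, against 8.64, 8.20 and 7.93 in the others (difference 3.18, SE 0.44, adjusted p 0.271). Cdkn1c differed by 3.45 (SE 0.76), Gas1 by -2.58 (SE 0.55) and Spp1 by -2.51 (SE 0.49), each with an adjusted p of 0.314. The excluded C pair had no counterpart of its class among the other letters at this depth. Without the excluded pair, with C replicates 5 and 6 against all 9 others, 0 genes were called and 95 had an unadjusted p under 0.05 (12.7%), 32 of them higher in C (4.27%). Without the desert C libraries 0 were called and 57 had an unadjusted p under 0.05 (7.60%), 18 of them higher in C (2.40%).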

How the data were processed

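Per the labels, total RNA was extracted with Trizol from mouse mammary tumour transplants and measured by NanoString barcode counting. The authors deposited log2 values; each proved to be log2 of a whole count times 1 factor per sample (whole within 0.001 for 100% of values). How that factor was set, and any background subtraction, is not stated. Of 784 rows, 34 hold no value and 750 genes were analysed; the files name no genome build, and symbols were matched to RefSeq (744 directly, 6 as synonyms). Libraries were grouped by code letter, class and code mark from the labels, replicates numbered in sample order. limma 3.58.1 (R 4.3.3; lmFit and eBayes, 2-sided) compared 13 libraries of at least 100000 counts, with Benjamini-Hochberg adjustment over 750 genes and a threshold of 0.05. Named genes were the 10 with the smallest p in each direction, Sox2, and up to 2 members of each list with an unadjusted p under 0.05, 38 in all. Of 34 lists, 834 genes, 500 were measured. Members, lists and tests were chosen with earlier results of these data known. The fit was tested on simulated data. C replicates 3 and 4 (5327 and 5262 counts) were left out for depth. Alternatives are in the closing section. Some results are not reported here.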

Additional observations from a re-analysis of the deposited data

Results flagged for a closer look

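3 values stood out. Cenpf in C replicate 5 read 6.45, while the other 3 C libraries lay between 7.03 and 7.12, so 1 library set the width of the C group for that gene. Epcam in F replicate 1 read 1.05, under its detection limit of 2.03, while the other 8 libraries of F, G, H and L lay between 2.74 and 4.39. Both were found by the size of the gap against the range of the group, in 76 groups examined, and chance alone marks about 1 in 20 groups in this way. In the C libraries left out for their low counts, Birc5 in C replicate 3 read 7.94, just above its limit of 7.90, and was the only 1 of 12 values examined there (6 genes in 2 libraries) to exceed the limit.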

How the results depend on the processing

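The count of genes called in C against F, G, H and L was 0 in 35 of 36 alternatives, all 13 that left out 1 library among them, and 1 (Trat1) among F2 codes only. Between alternatives the smallest adjusted p varied from 0.016 to 0.999, and the number of genes with an unadjusted p under 0.05, 45 as reported, ran from 13 (libraries of every depth) to 131 (F2 codes only). With a pseudocount of 10, 1 gene was called against H (Pdgfb, adjusted p 0.030), and 41 genes differed by more than 2 log2 units within C in place of 78. Genes without overlap numbered 4 with each library set to its median (Birc5, Pold1, Ube2t and Pdgfb), and 2 both with libraries set to the genes above the limit in all 13 and after quantile normalization (Pold1 and Pdgfb each time), in place of 1. Of 1359 values of the 38 named genes, 1353 kept direction and side of the threshold. None of these genes was called as reported, so the side kept was that of genes not called. All but Sox2 were chosen by their p in mostly the same libraries, so this count is no measure of robustness. Anln (-0.28) and Sox2 (-1.29) turned among desert samples only. With infiltrate class as a fixed term the differences were the same, since desert is the only class that C shares with the others. That setting is therefore no separate result on direction. Il2ra (0.076) turned with libraries of every depth, and the cause was not tested. Of 34 list medians, 10 took both signs over 5 scaling and filter settings. No paired analysis was possible because replicate numbers follow sample order and pair nothing. Code number as a random block was not run, since 1 number alone holds 2 libraries. Depth limits low genes: in the 5 other F2 libraries values under 3.22 to 4.32 cannot be told apart from background.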
